A study of Mus musculus with 8 samples.

Results

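The genes described here are 48 transcription factor genes that pattern the embryo and lie outside the Hox clusters. They were taken as a fixed list by symbol, from 21755 protein-coding genes on the autosomes and the X chromosome. The list holds 8 Sox, 7 Pax, 7 Lhx, 5 Nkx, 3 Six-family (Six2, Six3 and Six6), 6 Tbx, 2 Otx, 4 Dlx and 3 Foxa or Foxd genes, and 3 genes of basic helix-loop-helix factors (Olig1, Olig2 and Neurod1), spread over 16 chromosomes. The promoters and gene bodies of all 48 passed the filters on reads and CpGs, and fewer genes are stated where a window leaves some out.

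Sorted spleen lymphocytes were profiled by oxidative bisulfite sequencing of the whole genome, from C57BL/6J mice aged 6 to 8 weeks. Bisulfite lets unmodified cytosine read as thymine, and the oxidation that precedes it makes 5-hydroxymethylcytosine read as thymine too, so the level reported is that of 5-methylcytosine. The cells were naive CD4+ T cells (CD62L high, CD44 low, CD25-) and resting CD43- B cells, from females and from males, with no treatment and no engineered allele in any group. The labels list 8 samples in 4 groups, both samples of a group name 1 file, and per the study's methods the cells of several mice were pooled in a sample. Each group therefore gave 1 library (female B and T and male B and T cells), whether its 2 samples were joined is not stated, and the 2 sexes are the only repeats of a cell type.

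Genes of this kind stand for whole cell lineages: each switches on a programme such as eye, kidney, limb or neural crest, and most are silent in blood cells. They are textbook targets of the Polycomb complexes, which keep genes off by modifying histones, often at CpG-rich starts that carry little DNA methylation. Mammalian gene bodies and intergenic DNA are by contrast methylated at most CpGs, and CpG-rich promoters of other genes are usually free of methylation only close to the start.

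The libraries held between 280919817 and 354634149 reads at CpGs, with a median of 14 to 17 reads per autosomal CpG, and 4699 of the 4990 CpGs in the promoters of the 48 genes (94.2%) were listed in every library. A promoter is the stretch from 1 kb before to 1 kb after the gene start, a gene body runs from 1 kb past the start to the gene end, and a level is the percentage of methylated reads over all CpGs of a window. A promoter of the 48 had 340 to 4028 reads per library (median 1592), which gave 95% Wilson intervals with a median width of 1.86 to 2.30 percentage points by library. A read is counted here at each CpG it covers. These intervals treat such counts as independent, though the CpGs of 1 read are not and no molecular identifiers are described. They cover counting error at most, and can be too narrow even for that. The sorts matched their labels: the promoters of the 5 B cell and 6 T cell marker genes examined differed by 20 points or more in the direction of their cell type, from Ms4a1 (B minus T -81.5 points) to Cd3d (92.1 points). The promoters of Cd8a and Cd8b1, which CD8 T cells use, were also lower in the CD4+ T libraries (B minus T 28.8 and 60.6 points). Itgam (13.05 points) and the X-linked Foxp3 passed the test below 20 points, Foxp3 at 56.3% and 44.5% in B and T cells of females and at 35.2% and 8.49% in those of males, and the other 8 marker genes of natural killer, myeloid and red cells examined did not pass.

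The range is shown by 5 promoter stretches. They are the 200 bases before the gene start, read 5′ to 3′ on the gene's strand from the reference genome, build GRCm38 (mm10), with each CpG in capitals. The first 2 are the genes with the lowest promoter levels, Foxa1 at chr12:57546917-57547116 (minus strand) and Pax2 at chr19:44755845-44756044 (plus strand). The next 3 are Lhx4 at its gene start, chr1:155751685-155751884 (minus strand), Lhx4 at the start of its principal transcript, chr1:155742028-155742227 (minus strand), and Sox10 at chr15:79165241-79165440 (minus strand).
Foxa1: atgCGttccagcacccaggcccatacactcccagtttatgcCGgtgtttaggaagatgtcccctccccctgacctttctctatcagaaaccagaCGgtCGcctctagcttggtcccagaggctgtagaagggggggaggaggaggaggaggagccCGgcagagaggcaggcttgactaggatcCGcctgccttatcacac
Pax2: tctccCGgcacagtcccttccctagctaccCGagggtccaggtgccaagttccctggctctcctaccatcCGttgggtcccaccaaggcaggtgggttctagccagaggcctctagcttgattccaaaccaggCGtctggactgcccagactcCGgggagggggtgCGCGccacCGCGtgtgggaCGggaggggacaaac
Lhx4 gene start: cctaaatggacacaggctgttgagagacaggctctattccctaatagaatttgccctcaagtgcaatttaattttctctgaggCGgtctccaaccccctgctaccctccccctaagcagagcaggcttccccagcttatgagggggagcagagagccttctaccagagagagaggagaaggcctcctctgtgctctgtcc
Lhx4 principal start: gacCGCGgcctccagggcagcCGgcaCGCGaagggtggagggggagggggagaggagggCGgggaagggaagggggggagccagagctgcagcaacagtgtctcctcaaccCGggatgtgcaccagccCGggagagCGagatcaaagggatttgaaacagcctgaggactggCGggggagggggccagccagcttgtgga
Sox10: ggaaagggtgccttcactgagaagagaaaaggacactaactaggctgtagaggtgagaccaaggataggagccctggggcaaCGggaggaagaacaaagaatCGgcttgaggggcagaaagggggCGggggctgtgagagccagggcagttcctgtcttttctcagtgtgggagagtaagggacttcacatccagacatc
The 6 CpGs of the Foxa1 stretch had 0% methylated reads in 3 libraries and 2.15% of 93 reads in male T cells. The 10 CpGs of the Pax2 stretch were at 0.457%, 0.775%, 5.74% and 0.485% in female B and T and male B and T cells. The single CpG before the Lhx4 gene start was at 84.6%, 85.7%, 88.9% and 62.5% of only 9 to 21 reads, while the 4 CpGs listed before its principal start were at 0% of 20 to 54 reads in every library, with an upper 95% Wilson bound of 16.1% in the shallowest. The 3 CpGs before Sox10 were at 57.1%, 59.6%, 51.2% and 60.5%. The Foxa1 and Pax2 stretches thus held little or no methylation. So did the 4 CpGs listed in all libraries of the Lhx4 principal-start stretch, out of 10 marked there. The CpG before the Lhx4 gene start was methylated in 62.5 to 88.9% of its few reads. The Sox10 stretch was at 51.2 to 60.5%, with lower 95% Wilson bounds of 36.8 to 45.6%.

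Promoters of the 48 genes carried little methylation in both cell types. In 43 of 48 the level was under 15% in every library, against 48.0% of the 20501 promoters tested. Their median level over the 4 libraries was 5.40%, against 13.5% for all promoters and 3.09% for the 4416 CpG-rich promoters of other genes. CpG-rich here means an observed over expected CpG ratio of at least 0.6 and at least 55% G and C in the window. By that measure 24 of the 48 were CpG-rich, against 20.4% of all genes, and the median ratio was 0.61 against 0.48. Single CpGs followed the windows: 84.8% of the 4699 CpGs were under 10% and 97 (2.06%) were over 50%.

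The 4 lowest promoters were those of Foxa1, Pax2, Six2 and Otx1. Foxa1, a pioneer factor of endoderm, was at 1.04% in female B, 1.49% in female T, 1.04% in male B and 1.93% in male T cells. Pax2, which builds kidney and midbrain, was at 1.71%, 1.87%, 1.86% and 1.41% in the same order. Six2, which maintains kidney progenitors, was at 1.73%, 1.46%, 2.30% and 1.74%. Otx1, a forebrain factor, was at 2.06%, 1.71%, 2.27% and 1.39%. The 4 genes lay within 1.04 to 2.30% in every library, and their Wilson intervals overlapped between B and T cells.

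In 5 promoters the level was above 15% in at least 1 library. Lhx4, a factor of pituitary and motor neurons, was at 68.9% in female B, 69.2% in female T, 75% in male B and 73.6% in male T cells. Sox10, the neural crest and glia factor, was at 73.9%, 68.2%, 62.2% and 68.3%. Pax8, which specifies thyroid and kidney, was at 43.5%, 45.6%, 41.5% and 38.3%. These 3 were methylated to a similar degree in B and T cells, with the 2 sexes of a cell type up to 11.7 points apart (Sox10 in B cells). Tbx4, a hindlimb and lung factor, was at 34.6%, 34.96%, 35.3% and 37.9%. Lhx3, the partner of Lhx4 in the pituitary, was at 20.6%, 28.4%, 20.2% and 23.4%. Lhx4, Lhx3, Pax8, Sox10 and Tbx4 had the 5 lowest observed over expected CpG ratios of the 48, 0.14, 0.25, 0.26, 0.31 and 0.44. Over the 48 genes Spearman's rho between promoter level and that ratio was -0.72, as a description of 48 windows measured in the same 4 libraries.

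The level at 2 of these 5 genes, Lhx4 and Lhx3, was lower at another annotated start. A principal transcript starting elsewhere was annotated for 16 of the 48 genes, over 1000 bases away in 11. At the principal start of Lhx4, 9657 bases downstream, the level was 2.90%, 1.93%, 2.82% and 2.05%. At the principal start of Lhx3 it was 11.9%, 14.9%, 13.2% and 12.6%. With principal starts 45 of 48 promoters were under 15%, with a median of 4.86%, and Sox10, Pax8 and Tbx4 remained above. Another annotated gene, mostly an antisense or long non-coding RNA, lay in the promoter window of 25 of the 48, and a CpG there belongs to both genes. In 3 it was protein-coding, namely Qsox2 at Lhx3, Cerkl at Neurod1 and 4930447C04Rik at Six6. Over the whole gene 25 of the 48 overlapped another annotated gene, so CpGs of gene bodies can be shared as well. The protein-coding ones were Slc25a21 at Pax9, 4930447C04Rik at Six6, Cerkl at Neurod1 and Inpp5a at Nkx6-2. Dlx1 overlapped the antisense gene Dlx1as.

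**Figure D1:**
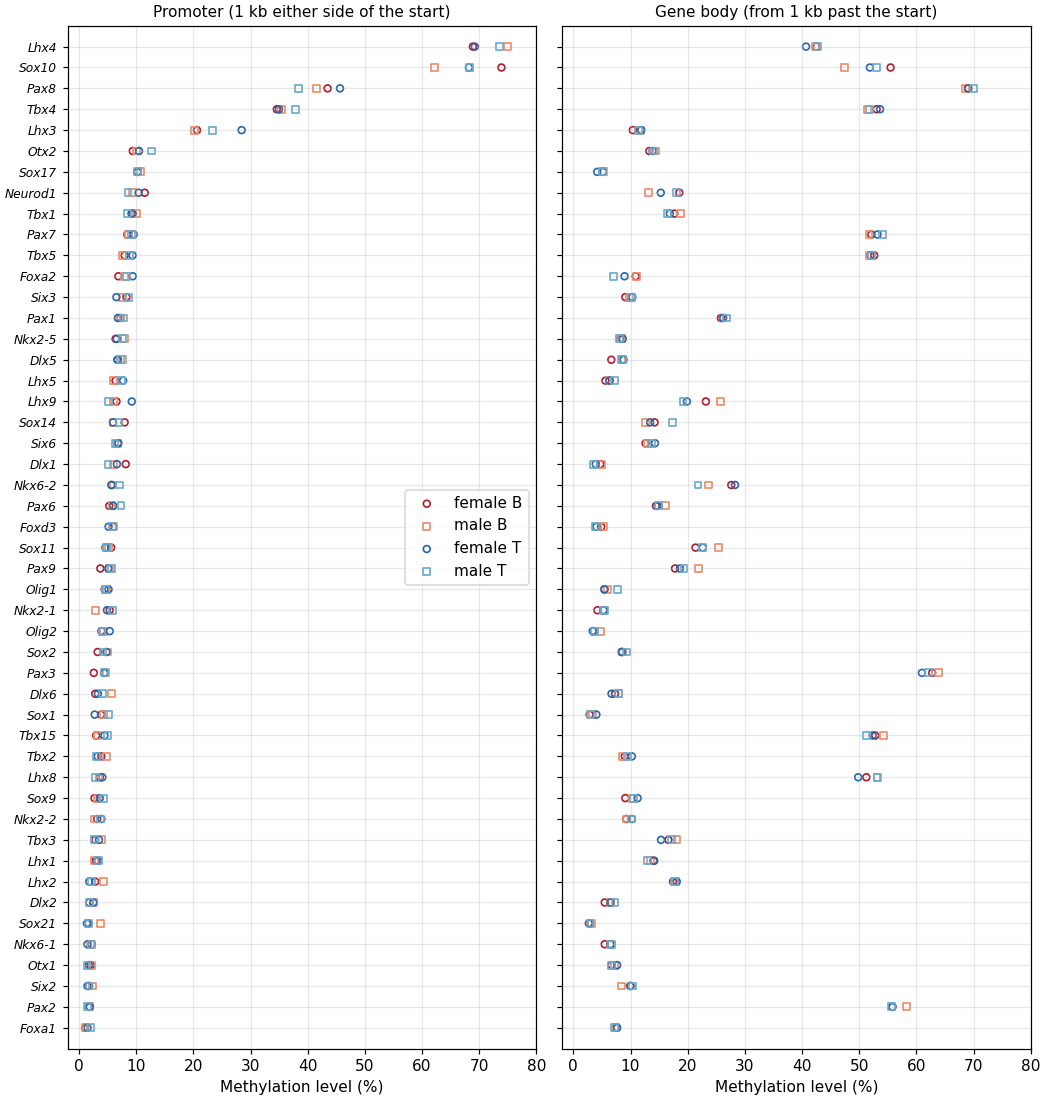
Methylation level (%, horizontal axis) of promoter and gene body for each of the 48 genes, 1 point per library. Promoters sit at the left, under 15% in 43 of 48 genes, and bodies spread from 2.91% (Sox21) to 69.2% (Pax8) as the mean of the 4 libraries.

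Gene bodies of the 48 were also low, and there they stood apart from the genome. Their median level was 12.4%, against 86.7% for the 20353 bodies tested and 85.8% for the bodies of other genes with CpG-rich promoters. In 28 of 48 the mean level was under 15%, against 1.68% of all bodies, and in 39 of 48 it was under 50%, against 6.00%. Both values depend on where the body begins: taken from 5 kb past the start, which leaves 31 of the 48 to test, the median was 21.51% and 12 of 31 bodies were under 15%. The values for all bodies above are for bodies from 1 kb past the start, and none is given for those from 5 kb. The 4 lowest were Sox21 at 2.71%, 2.88%, 3.15% and 2.91% (female B and T and male B and T cells), Sox1, Olig2 and Dlx1. Sox1, which with Sox21 marks neural progenitors, was at 2.84%, 4.03%, 3.35% and 2.97%. Olig2, of oligodendrocytes, was at 3.46%, 3.38%, 4.80% and 3.77%, and Dlx1, of inhibitory interneurons, at 4.71%, 3.92%, 4.95% and 3.51%. All 4 were under 5% in every library.

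The 4 highest bodies were all Pax genes. Pax8 was at 69.0%, 69.1%, 68.6% and 69.9%. Pax3, a neural crest and muscle factor, was at 62.8%, 61.0%, 63.9% and 62.1%. Pax2 was at 55.8%, 55.8%, 58.2% and 55.6%. Pax7, which marks muscle stem cells, was at 52.1%, 53.2%, 51.7% and 54.1%. These 4 are long genes. The 29 members under 10 kb had bodies at 2.91 to 25.3% (median 8.12%), the 5 of 10 to 20 kb at 9.73 to 52.0% (median 13.9%) and the 14 over 20 kb at 15.1 to 69.2% (median 52.0%). Spearman's rho between body level and gene length was 0.74 over the 48 genes, a description only. Of the 48, 60.4% were shorter than 10 kb, against 35.4% of all genes.

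By family, the median body level was 52.8% for Pax (15.1 to 69.2%), 34.8% for Tbx (9.29 to 52.7%) and 17.8% for Lhx (6.35 to 51.8%). It was 10.5% for Otx, 9.84% for Six2, Six3 and Six6, 9.52% for Sox, 8.33% for Nkx, 7.45% for Foxa and Foxd, 6.94% for Dlx and 6.15% for the helix-loop-helix genes. The promoter medians of the same families lay between 4.67% (Sox) and 6.74% (Lhx), a narrower span than that of the body medians. Single promoters reached 71.7% in Lhx, 68.1% in Sox and 42.2% in Pax, and the Sox bodies ran from 2.91 to 52.0%. The medians rest on 2 to 8 genes each. Differences between families were not tested, and family was not separated from gene length.

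The question of promoter against body was tested within each gene over all 4 libraries (edgeR quasi-likelihood test, Benjamini-Hochberg adjustment over 19541 genes, passed at an adjusted p under 0.05). The median difference, body minus promoter, was 6.21 points, against 66.3 points for all genes. The body was above the promoter in 34 of 48 (background 78.2% of genes) and below it in 6 (background 11.6%). With a difference of 20 points or more the counts were 7 above (background 69.2%) and 1 below (background 2.7%). limma passed 40 of the 48, as many as edgeR, but its share over all genes is not given and the backgrounds above are those of edgeR.

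The 7 genes with the wide gap were long. Pax3 had differences of 60.2, 56.6, 59.2 and 57.7 points in female B and T and male B and T cells. Pax2 had 54.1, 53.9, 56.4 and 54.2 points. Tbx15, a skeletal factor, had 49.8, 47.9, 51.0 and 46.3 points, and Lhx8, a forebrain factor, had 47.6, 45.8, 49.7 and 50.2 points. Pax7 (43.8 points), Tbx5 (43.7 points) and Pax8 (26.9 points) followed as means of the 4 libraries. In each of the 7 the gap was far wider than its spread over libraries.

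In 6 genes the promoter was the more methylated window. Lhx4 had body minus promoter differences of -26.4, -28.5, -32.6 and -30.9 points, Sox10 of -18.4, -16.3, -14.8 and -15.2 points and Lhx3 of -10.2, -16.6, -8.33 and -12.0 points. Sox17, a factor of endoderm and endothelium, had -5.05, -6.08, -5.49 and -5.14 points. Dlx1 (-2.21 points) and Foxd3, a neural crest factor (-1.25 points), passed with small values. With the principal start the sign turned for Lhx4 (39.6 points) and Sox17 (1.69 points), and with the body taken from 5 kb past the start it turned for Sox10 (7.68 points). Lhx3 kept its sign at the principal start but was at -1.79 points and did not pass. In this alternative the body still ran from 1 kb past the gene start. For Lhx4, Sox17 and Lhx3 it therefore held some or all CpGs of the principal-start window, and the windows compared were not separate. The other 8 genes, Sox1, Lhx5, Olig2, Nkx2-1, Sox21, Dlx5, Nkx2-5 and Foxa2, did not pass, with values between -0.67 and 1.38 points.

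**Figure D2:**
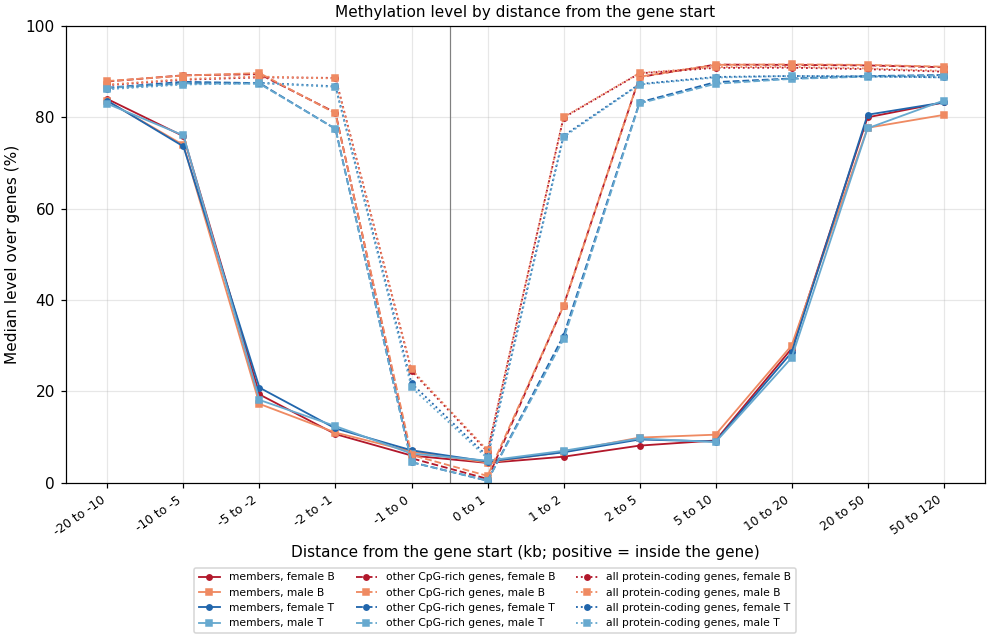
Median methylation level (%, vertical axis) by distance from the gene start for the 48 genes, for CpG-rich genes outside the list and for all genes, per library. The 48 stay between 8.13 and 9.89% at 2 to 5 kb inside the gene, where the other sets are between 83.0 and 89.7%.

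The low state of the 48 reached well past the promoter. In the first 1 kb inside the gene their median was 4.34 to 4.84% over the libraries, at 2 to 5 kb 8.13 to 9.89% (45 genes) and at 5 to 10 kb 8.90 to 10.5% (31 genes). At 10 to 20 kb it was 27.3 to 30.03% (19 genes), and at 20 to 50 kb it was 77.6 to 80.5% (14 genes). CpG-rich genes outside the list had less methylation than the 48 in the first 1 kb (0.449 to 1.51%) but were at 83.0 to 88.8% by 2 to 5 kb. Upstream the 48 were at 17.3 to 20.8% at 2 to 5 kb and at 73.6 to 76.0% at 5 to 10 kb before the start. No order of B and T held over these distances: both B libraries were below both T libraries in the first 1 kb and above them at 5 to 10 kb inside the gene.

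Contiguous unmethylated runs were measured in each library as the stretch of neighbouring CpGs whose level, smoothed over 11 CpGs, stayed under 15%, taking the longest one that touched the promoter. The median run of the 48 was 3499 bases in female B, 3171 in female T, 3232 in male B and 2919 in male T cells, against 740, 780, 758 and 807 bases for all promoters. As the mean of the 4 libraries it was 3284 bases, against 1653 bases for CpG-rich promoters outside the list. A run of at least 2000 bases in every library was found at 29 of 48 (60.4%), against 7.96% of all promoters and 24.5% of the other CpG-rich ones. A mean run of 5000 bases or more was found at 14 of 48 (29.2%), against 0.698% of all, and the count in single libraries was 9 (female T) to 20 (female B). The median run of the 48 moved from 2004 to 5575 bases with thresholds of 10% and 20%.

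The 4 longest were at Dlx6, Nkx2-1, Lhx5 and Lhx8. The settings of the run moved these lengths, as the mean of the 4 libraries, to 3626 to 19329 bases at Dlx6, 4230 to 13407 at Nkx2-1, 2093 to 16884 at Lhx5 and 4541 to 8018 at Lhx8. At Dlx6, a limb and face factor, the run spanned 20451 bases in female B, 11755 in female T, 6643 in male B and 12178 in male T cells. At Nkx2-1, of thyroid, lung and forebrain, it spanned 11098, 11349, 8313 and 12347 bases. At Lhx5, a forebrain factor, it spanned 6923, 9051, 10294 and 6903 bases. At Lhx8 it spanned 7746, 7699, 7735 and 7791 bases. Lhx8 gave nearly the same run in all 4 libraries, while the Dlx6 run differed most between libraries, also between the sexes of a cell type. Pax6, the eye master gene, had a run of 13566 bases in female B and 4741 to 4959 bases elsewhere. No run was found at Pax8 or Lhx4, and those at Sox10 (0 to 23 bases) and Tbx4 (1 to 174 bases) were short. Both B libraries had the longer run at 5 of the 48 and both T libraries at 3, against 7.18% and 26.8% of all promoters.

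**Figure D3:**
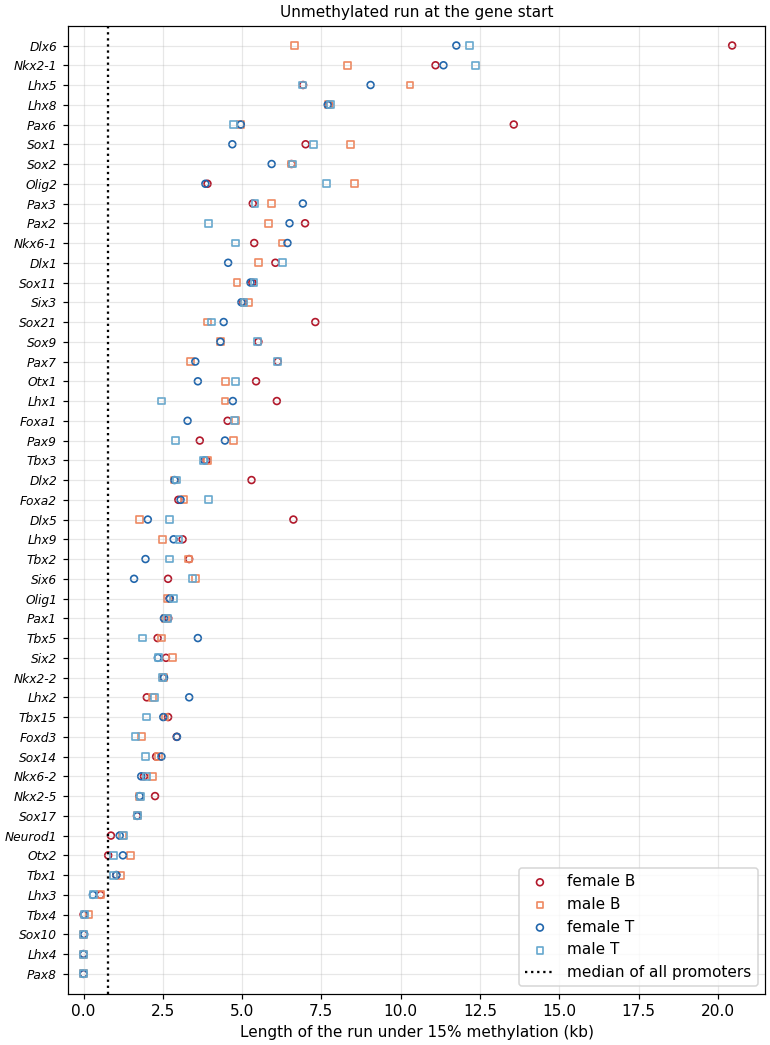
Length of the unmethylated run at the gene start (kb, linear axis) for each of the 48 genes, 1 point per library, with the median of all promoters as a dotted line. Most genes lie right of that line, and Pax8, Lhx4, Sox10 and Tbx4 lie at or next to 0.

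B cells were then compared with T cells in the promoters, with cell type and sex as terms in 1 fit over 20501 promoters. None of the 48 passed the edgeR quasi-likelihood test at a Benjamini-Hochberg adjusted p under 0.05, against 19.9% of all promoters, and none differed by 20 points in addition (background 1.37%). The 43 promoters under 15% in every library could not differ by 20 points, so that count was fixed for them. The comparison with all promoters, here and in the differences below, was not matched for level. limma passed none either, but its share over all promoters is not given, so that count says little by itself. By edgeR 2 had an unadjusted p under 0.05, against 30.7% of all promoters. Both B libraries were above or below both T libraries in 19 of 48 (background 54.5%), higher in B in 7 (background 43.9%) and lower in 12 (background 10.6%). B was above T in 25 of 48, against 73.0% of all promoters. The median absolute difference was 0.61 points, against 1.62 points for all promoters.

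The widest promoter differences were those of Lhx3, Otx2, Tbx15, Lhx2 and Tbx4. Lhx3, whose levels are given above, had a difference between B and T of -5.51 points (edgeR quasi-likelihood test, Benjamini-Hochberg adjusted p = 0.168). Both its B libraries were below both T libraries, but the 2 T libraries were 5.06 points apart. Its difference was -2.98 points without the female T library and -1.15 points at the principal start. Otx2, a forebrain and eye factor, was at 9.38%, 10.5%, 10.0% and 12.6% in female B and T and male B and T cells (-1.85 points), and its difference ran from -2.93 points without the female T library to -0.77 points without the male T library. Tbx15 was at 2.99%, 4.44%, 3.23% and 4.98% (-1.60 points), and Tbx4 differed by -1.46 points. The sign turned for Tbx15 (0.16 points) and Lhx2 (-0.17 points) at their principal starts and for Tbx4 without the male T library (0.0053 points). Lhx2, which acts in forebrain and eye, was at 2.82%, 1.77%, 4.28% and 2.18% (1.58 points, edgeR quasi-likelihood test, Benjamini-Hochberg adjusted p = 0.0653). Sox21 was the other gene with an unadjusted p under 0.05, at 1.63%, 1.37%, 3.70% and 1.61% (1.18 points). In Lhx2 and Sox21 the highest value was that of male B cells, and without that library the Lhx2 difference was 0.85 points. The other B library of Sox21 was next to the T libraries.

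The male B library also had the most methylated reads on mitochondrial CpGs, which are taken to be unmethylated: 0.727%, against 0.271% in female B, 0.0733% in female T and 0.0709% in male T cells. Once these shares were subtracted, an alternative chosen after the data were seen, 1 of the 48 promoters passed. It was Foxa1 (-1.12 points, edgeR quasi-likelihood test, Benjamini-Hochberg adjusted p = 0.0445), against 11.1% of all promoters.

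**Figure D4:**
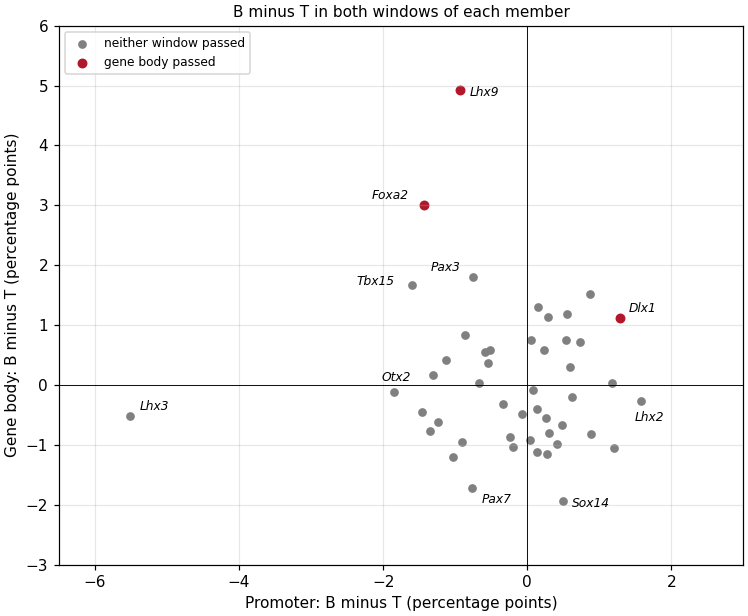
B minus T difference (percentage points) of gene body against that of promoter for the 48 genes, 1 point per gene, with the genes that passed in the body marked. Promoter differences run from -5.51 (Lhx3) to 1.58 (Lhx2) and body differences from -1.94 (Sox14) to 4.92 (Lhx9).

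In gene bodies 3 of the 48 passed, all higher in B cells, against 42.8% of the 20353 bodies tested in either direction and 38.4% with B higher. None differed by 20 points (background 1.43%), which was impossible for the 27 bodies under 15% in every library. Lhx9, a gonad factor, was at 23.2% in female B, 19.9% in female T, 25.7% in male B and 19.2% in male T cells, so that B minus T was 4.92 points (edgeR quasi-likelihood test, Benjamini-Hochberg adjusted p = 0.000501). Foxa2, an endoderm factor, was at 10.9%, 8.95%, 11.1% and 7.02% (3.01 points, edgeR quasi-likelihood test, Benjamini-Hochberg adjusted p = 0.00406). Dlx1, whose body levels are given above, differed by 1.12 points (edgeR quasi-likelihood test, Benjamini-Hochberg adjusted p = 0.0289). Both B libraries were above both T libraries in all 3. As a mean over CpGs that gives each CpG equal weight, the differences were 1.99 points for Lhx9, 1.59 points for Foxa2 and 0.58 points for Dlx1. limma passed none of the 48, but its share over all bodies is not given, so that count says little by itself. Foxa2 did not pass without the male T library (2.05 points), and Dlx1 did not pass without the female T, male B or male T library (0.914 to 1.32 points) or with the mitochondrial shares subtracted (0.696 points), and its sign turned with the body from 5 kb (-1.50 points).

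The next widest body differences did not pass. Sox14, an interneuron factor with 30 CpGs in its short body, was at 14.2%, 13.4%, 12.6% and 17.3% (-1.94 points). Its difference was -0.013 points without the male T library, -1.14 points without male B and -3.86 points without female T. Pax3 differed by 1.80 points and Pax7 by -1.72 points, and with equal weight for each CpG by 0.94 and -0.61 points. Both B libraries were above or below both T libraries in 21 of 48 (background 67.3%), 9 higher (background 56.4%) and 12 lower (background 10.9%). B was above T in 22 of 48, against 76.8% of all bodies. With the mitochondrial shares subtracted 8 of the 48 bodies passed, against 36.5% of all: Lhx9 and Foxa2 higher in B, and Tbx2, Nkx2-1, Nkx2-2, Pax7, Lhx5 and Sox1 lower (-0.82 to -2.15 points).

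An interaction term tested B minus T in the body against B minus T in the promoter, and none of the 48 passed (background 3.87% of 19541 genes), with 5 at an unadjusted p under 0.05, against 20.4% of genes, and none by limma. Sex was examined in the same fits. No promoter (background 3.31%) and no body (background 1.03%) of the 48 passed the test of females against males by edgeR or limma, with 2 of each at an unadjusted p under 0.05, against 10.3% of all promoters and 7.81% of all bodies. With 4 libraries the sexes could be compared in their B minus T difference only by a fit that leaves out the sex term, so that the difference between the sexes counts as spread. By that edgeR fit no promoter or body of the 48 passed, and none of all genes did (background 0% of promoters and 0% of bodies), so it says little about any gene. The B minus T difference of Sox10 was 11.8 points higher in females than in males in the promoter and 9.30 points higher in the body. In the 48, 2 bodies and no promoter had an unadjusted p under 0.05 in that test, against 2.87% of all bodies and 2.24% of all promoters, and limma passed none. All 48 lie on autosomes, while the background shares include genes of the X chromosome. No share over autosomal genes alone is given, so the backgrounds of the sex tests are not matched to the 48.

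Shorter stretches were examined as tiles of 1 kb, tested across the genome and read out over each of the 48 genes with 10 kb on either side. Of 1724 tiles 13 differed with an adjusted p under 0.05 and by 20 points or more (0.754%), against 3.17% of the 1530528 tiles of the genome. Of these, 6 were higher in B cells, against 2.36% of tiles genome-wide, and 7 were lower, against 0.812%. By the adjusted p alone 41 passed (2.38%), against 9.32%. The tiles of the genome were not matched to these for level. None of the 144 tiles that touch a promoter passed with 20 points or more, and 2 passed by the adjusted p alone. At the 43 promoters under 15% in every library there was little room for such a difference. The 13 tiles lay at 6 genes: Pax7 (7), Pax2 (2), Dlx1, Lhx8, Lhx9 and Nkx2-5. limma called 7 of the 13, but its share over all tiles is not given, so that count says little by itself. The 6 that did not pass by limma were both Pax2 tiles, the Dlx1 tile and the Pax7 tiles 15027, 19027 and 94027 bases past the start.

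Pax7 held the strongest differences. The gene spans 96467 bases on the minus strand of chromosome 4, and 5 of its tiles lay near its far end, 89027 to 95027 bases past the gene start. The tile chr4:139742001-139743000 in an intron was at 25.2% (95% Wilson interval 19.0 to 32.5%) in female B, 88.4% (82.3 to 92.7%) in female T, 42.5% (32.3 to 53.4%) in male B and 89.0% (82.9 to 93.1%) in male T cells, so that B minus T was -54.9 points. The tile chr4:139744001-139745000 was at 37.3%, 89.4%, 36.7% and 88.9% (-52.2 points, edgeR quasi-likelihood test, Benjamini-Hochberg adjusted p = 7.58e-38). The tile between them differed by -38.5 points. Toward the gene end 2 exonic tiles differed by -32.9 points (chr4:139738001-139739000, at 63.4%, 89.7%, 57.3% and 96.7%) and by -23.0 points. Both B libraries were below both T libraries at 7 of 7, 8 of 12 and 8 of 8 CpGs of the 3 intronic tiles and at 9 of 13 and 9 of 16 CpGs of the 2 exonic ones. At 1 of those 16 CpGs both were above. The tiles were called for their difference, so these counts only describe them, and no share over all CpGs is given.

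The other 2 Pax7 tiles lay in introns nearer the start and went in opposite directions. One, 15027 bases past the start, was at 31.4%, 64.2%, 38.9% and 61.8% (-27.9 points). The other, 19027 bases past the start, was at 77.2%, 62.0%, 76.7% and 50% (20.9 points), and it was 14.9 points and did not pass without the male T library. Over the whole Pax7 body, with 1508 CpGs, the difference was -1.72 points and did not pass.

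**Figure D5:**
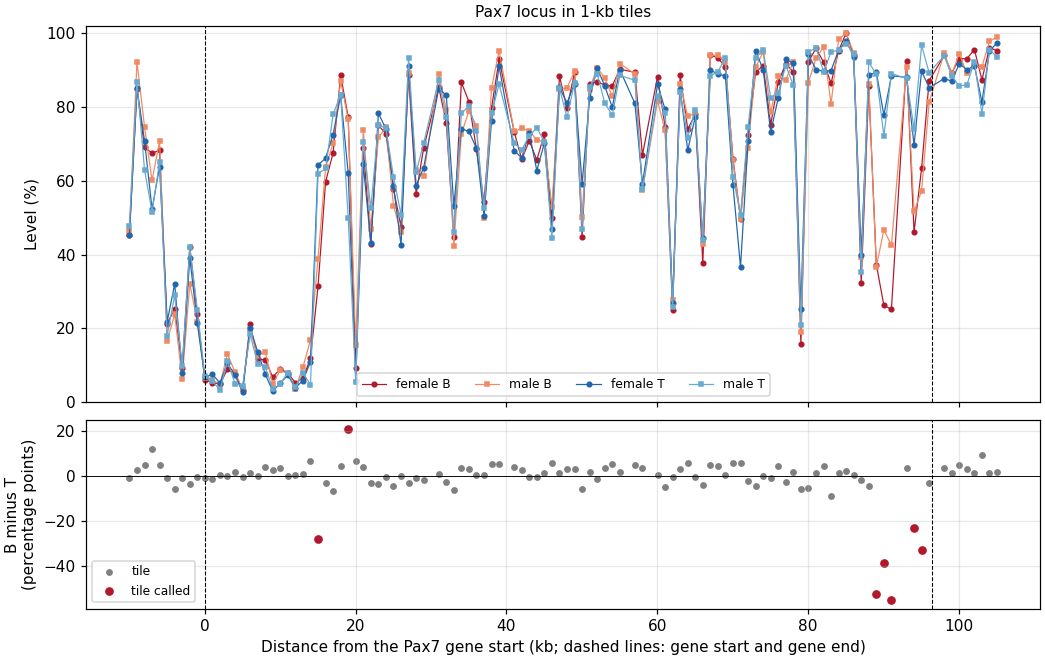
Methylation level (%, upper panel, 1 line per library) and B minus T (percentage points, lower panel) of 1-kb tiles along Pax7 by distance from the gene start (kb), with tiles past both thresholds in red. In the 3 tiles 89027 to 91027 bases past the start the T libraries lie between 72.1 and 89.4% and the B libraries between 25.2 and 46.7%.

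The 300 bases of a called tile that hold the most CpGs listed in all 4 libraries are printed for each direction. For Pax7 the tile is that with the smallest adjusted p, and for Lhx8 that with the widest difference among tiles higher in B cells. The Pax7 stretch is intronic, chr4:139744064-139744363 (GRCm38, minus strand), with 6 CpGs. The Lhx8 stretch lies downstream of the gene, chr3:154297694-154297993 (GRCm38, printed on the minus strand), with 7 CpGs. Capitals mark the CpGs.
Pax7 intron: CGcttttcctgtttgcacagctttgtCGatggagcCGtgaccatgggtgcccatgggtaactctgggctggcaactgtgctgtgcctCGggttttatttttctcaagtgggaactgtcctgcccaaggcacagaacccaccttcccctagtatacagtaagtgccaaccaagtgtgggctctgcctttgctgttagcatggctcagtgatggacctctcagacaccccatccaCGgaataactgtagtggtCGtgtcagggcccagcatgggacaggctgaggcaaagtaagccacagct
Lhx8 downstream: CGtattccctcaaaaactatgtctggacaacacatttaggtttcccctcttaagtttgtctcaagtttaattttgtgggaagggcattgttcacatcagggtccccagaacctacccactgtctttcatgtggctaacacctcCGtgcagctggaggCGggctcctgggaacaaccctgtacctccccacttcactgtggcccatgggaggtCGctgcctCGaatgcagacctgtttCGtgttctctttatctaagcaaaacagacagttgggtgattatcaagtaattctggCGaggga
The 6 CpGs of the Pax7 stretch were at 9.59% in female B, 93.5% in female T, 3.48% in male B and 89.6% in male T cells, from 115 to 154 reads. The 7 CpGs of the Lhx8 stretch were at 80.8%, 42.8%, 82.1% and 36.6%, from 117 to 167 reads. Both tiles were chosen for their difference, so the levels of the stretches are a description.

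The tiles higher in B cells lay mostly past the gene ends. The Lhx8 tile, 8793 bases past the end, was at 83.1%, 50.7%, 83.1% and 44.9% (35.3 points, edgeR quasi-likelihood test, Benjamini-Hochberg adjusted p = 1.11e-13). The Lhx9 tile, 3685 bases past the end, was at 96.4%, 55.6%, 96.5% and 69.1% (34.0 points). The Nkx2-5 tile, 9163 bases past the end of this heart factor gene, was at 84.4%, 61.4%, 83.2% and 52.2% (27.0 points). These 3 tiles overlapped no annotated gene. Pax2 had 1 tile in an intron (77.3%, 55.9%, 84.0% and 59.1%, 23.1 points) and 1 tile 9630 bases past its end (20.005 points, and 18.2 or 17.5 points without the female B or female T library). The intronic Pax2 tile, with 6 CpGs, did not pass without the female T (21.55 points) or male B library (19.8 points).

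Dlx1 was the only one of the 48 with a called tile upstream of the start. The tile chr2:71525001-71526000, at -2612 bases from the start, was at 23.8%, 45.5%, 24.4% and 43.6% (-20.5 points, edgeR quasi-likelihood test, Benjamini-Hochberg adjusted p = 0.000778). Without the female T library it was at -19.6 points, and with at least 10 reads per CpG at -17.8 points, both short of 20. Its 2 neighbours at -3612 and -1612 bases passed with -17.4 and -18.0 points. The tile overlaps the annotated genes Metap1d and Dlx1as, so it cannot be assigned to Dlx1 alone. Upstream of Nkx6-2, a spinal cord factor, a tile at -5704 bases from the start was at 20.2%, 38.2%, 28.4% and 49.5% (-19.6 points), which passed but was short of 20 points.

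The nearest relatives of the 48 are the other 43 protein-coding genes of the same families, of which 42 promoters and all 43 bodies were tested. Their median promoter level was 6.24%, with 28 of 42 under 15% in every library against 43 of the 48. Their median body level was 45.3%, and 11 of 43 bodies were under 15%. In B against T cells 6 of 42 promoters passed (2 higher and 4 lower in B, background 19.9%) and 12 of 43 bodies (10 higher and 2 lower, background 42.8%), none by 20 points. The widest promoter differences were those of Sox15 (-17.1 points, at 55.7%, 77.1%, 58.6% and 71.4%), Pax5, the B cell identity factor (-13.4 points), and Nkx2-3 (-6.03 points). The widest body differences were those of Six5 (-12.5 points, at 43.1%, 56.3%, 43.9% and 55.7%), Tbx6 (8.21 points) and Sox3 (7.06 points). The body of the X-linked Sox3 was at 44.6% and 32.8% in female B and T cells and at 3.95% and 1.62% in male ones. Whether the relatives differ from the 48 in these counts was not tested.

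The 17 Polycomb subunit genes, which make the complexes named above, had unmethylated starts (median 5.00%, 15 of 17 under 15% in every library) and methylated bodies, with 1 of 17 under 50%. In B against T cells 3 promoters of the 17 passed, all higher in B (background 19.9%), and 14 bodies, 12 higher and 2 lower (background 42.8%), none by 20 points. Kdm2b, which binds unmethylated CpGs, had the widest promoter difference among them (8.59 points), with 11.6%, 2.38%, 10.1% and 2.19%.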

How the data were processed

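Methylation was taken from 4 tables, 1 per group, in which the authors deposited for each CpG position a methylation level as a fraction and the read count behind it. Per the submitters' processing notes, reads were handled with Trim Galore, FastQC and Bismark 0.13.1 on mm10. The number of methylated reads was recovered as level times reads. CpGs listed in all 4 libraries (18684786) were summed over promoters, gene bodies and 1-kb tiles of GENCODE mouse release M21 (GRCm38), keeping regions with at least 5 CpGs and 20 reads in each library. Methylated and unmethylated counts were fitted with edgeR 4.0.16 (quasi-likelihood test, R 4.3.3), with cell type and sex as terms (cell type and cell type by sex, without sex, for the comparison of B minus T between the sexes), and p-values were adjusted by Benjamini and Hochberg over all regions. In the main B against T fits of promoters and tiles the dispersion was shrunk fully to its trend, leaving 1 common spread for regions of like coverage. Their p-values set a difference against that shared spread and give no weight to a region's own spread. All p-values rest on 4 libraries only. Differences in percentage points come from summed reads. Wilson intervals are at 95%.

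The fits were tested on simulated data. Alternatives were limma 3.58.1, other read and CpG minimums, other starts and bodies, other run settings and each library left out. With a library left out, B against T was fitted with cell type alone, without sex. Background shares are those of the main edgeR fits, and a count under an alternative has no share of its own unless one is printed. The subtraction of the mitochondrial methylated share was added after seeing the data. Genes were named by rule: the 5 widest B minus T differences in promoters and in bodies, the 4 highest and 4 lowest levels of each, the 4 largest and 4 smallest body minus promoter differences, the 4 longest and 4 shortest runs, every gene past 20 points, the 5 widest called tiles in each direction and the 3 widest promoter and the 3 widest body differences among relatives. Sox21 in promoters, Sox10 between the sexes, Pax6 in runs, Kdm2b and the smaller tile differences were added after their values were seen. The 48 genes and the lists of relatives, Polycomb subunits and cell markers were chosen with earlier results of these data known.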

Additional observations from a re-analysis of the deposited data

How the results depend on the processing

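No paired analysis was possible because the labels give the groups no shared replicate number. Sex was a term of the B against T fits on all 4 libraries, which therefore compare the cell types within each sex. The B against T fits with 1 library left out had cell type as their only term and mix sex with cell type. Their dispersion was also larger, for promoters 0.0387 to 0.0436 against 0.0107. Not passing in those fits is therefore no like-for-like comparison with the main fits. With no minimum difference, so by the adjusted p alone, 3 bodies of the 48, 6 promoters and 12 bodies of their relatives, 40 body against promoter comparisons and 41 tiles were counted in place of 0, 0, 0, 8 and 13. limma counted 7 tiles, and its share over all tiles is not given. With at least 10 reads per CpG, 1 of the 48 passed the test of B minus T in the body against the promoter. The share of the 17967 genes of that fit that passed is not given, so this count says little by itself. The median run of the 48, 3284 bases, was 5223 bases when smoothed over 21 CpGs and 2438 bases over 5, 4255 bases with at least 10 reads per CpG, 2004 bases under a threshold of 10% and 5575 bases under 20%, and 2873 to 3531 bases with 1 library left out. In those 5 settings the median of all promoters was 628 to 855 bases. The sign of B minus T turned at principal starts for the promoters of Tbx15 (0.16 points) and Lhx2 (-0.17 points), without the male T library for Tbx4 (-2.92 to 0.0053 points over the 4 left-out libraries) and with the body from 5 kb for Dlx1 (-1.50 points). Body minus promoter turned at principal starts for Lhx4 (39.6 points) and Sox17 (1.69 points) and with the body from 5 kb for Sox10 (7.68 points). At those principal starts the body, still set from the gene start, shared CpGs with the promoter window. By limma the adjusted p was 0.0870 for the Lhx9 body, 0.0936 for Foxa2 and 0.0868 for Dlx1. The cause of these changes was not tested. Depth limits the windows with few CpGs most, such as the Lhx4 gene start with 20 CpGs.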
